A study of Mus musculus with 6 samples.

Results

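The genes for translation initiation and elongation factors were compared between IFNγR1KO and scrambled control B16-BL6 cells, a mouse melanoma line. Members were the protein-coding genes whose GENCODE M21 symbol starts with Eif, Eef or Etf1, leaving out 7 genes (Eif2ak1 to Eif2ak4, Eif2s1, Eif4ebp1 and Eef1e1). This rule gave 63 factor genes among the 55335 genes of the count tables, of which 21899 are protein-coding. RNA of 3 cultures per genotype was measured by poly(A)-selected, paired-end RNA-seq, and the series set out to look for PI3K-Akt-mTOR activation after loss of IFNγR1. Scrambled control cells (genotype WT in the labels) carried a guide against GFP, and IFNγR1KO cells (genotype IFNyR1KO) carried a guide against Ifngr1. Both were delivered with Cas9 in lentiCRISPR v2 and selected with puromycin, and IFNγR1KO cells were grown from single cells and picked by their PD-L1 response to IFN-γ. All cultures were untreated, grown with 10% FBS and seeded overnight as triplicates. The labels do not say how many clones the IFNγR1KO cultures came from. Differences between clones and the effect of the genotype cannot be told apart, and the p-values cover the spread between cultures of the same cells.

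Initiation factors bring the initiator tRNA and the small ribosomal subunit to a messenger RNA and select its start codon. eIF2 carries the initiator tRNA and is recharged with GTP by eIF2B. eIF1 and eIF1A keep the scanning ribosome open, eIF3 is the large scaffold on the small subunit, and eIF5 triggers GTP hydrolysis by eIF2. eIF4F, made of the cap-binding protein eIF4E, the scaffold eIF4G and the RNA helicase eIF4A, recruits capped messenger RNAs, and 4E-BP proteins block its assembly until mTORC1 phosphorylates them. During elongation eEF1A delivers aminoacyl-tRNAs, eEF2 moves the ribosome along, eEF2 kinase (Eef2k) inactivates eEF2, and eIF5A eases the ribosome through difficult stretches such as runs of proline.

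Scrambled control libraries held 9402640 to 10579788 counts on genes and IFNγR1KO libraries 6698956 to 7409479, so that 1 count stood for 0.0966 to 0.109 CPM and 0.135 to 0.142 CPM. CPM, the usual depth-scaled count, were computed over the tested genes with TMM-adjusted library totals. All 7 melanocyte markers were abundant in every library, with a summed level of 27898 to 34659 CPM. Ptprc, the leukocyte marker, had at most 1 count per library, and Cd3e, Adgre1, Cdh5, Kdr and Lum were at 0. Macrophage markers summed to 7.39 to 10.2 CPM, mostly Csf1r, fibroblast markers to 1.76 to 4.23 CPM, mostly Pdgfra, and the part of these in the results was not tested. Ifngr1, the targeted gene, was still counted at 16.7, 14.3 and 16.6 CPM in scrambled control cells and 11.4, 11.5 and 11.5 CPM in IFNγR1KO cells (adjusted p = 0.0729). Long transcripts were raised, relative to the group mean, in libraries scrambled control 3 and IFNγR1KO 12. Over 58 tested factor genes, the deviation of a gene from its group mean was correlated with its longest coding transcript (Spearman's rho, across genes of the same libraries) at 0.65 in scrambled control 3 and 0.51 in IFNγR1KO 12. It was -0.35 and -0.57 in the other scrambled control libraries and -0.49 and -0.45 in the other IFNγR1KO libraries. Deviations from a group mean sum to 0, so a positive tilt in 1 library forces opposite deviations on the others. Over 11125 protein-coding genes the correlations were -0.17, -0.60 and 0.60 in scrambled control 1, 2 and 3. They were -0.39, -0.34 and 0.48 in IFNγR1KO 10, 11 and 12. Scrambled control 2 thus departed by length as much as scrambled control 3, in the other direction. Each result below is also given without the pair of scrambled control 3 and IFNγR1KO 12 where its call changes.

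**Figure D1:**
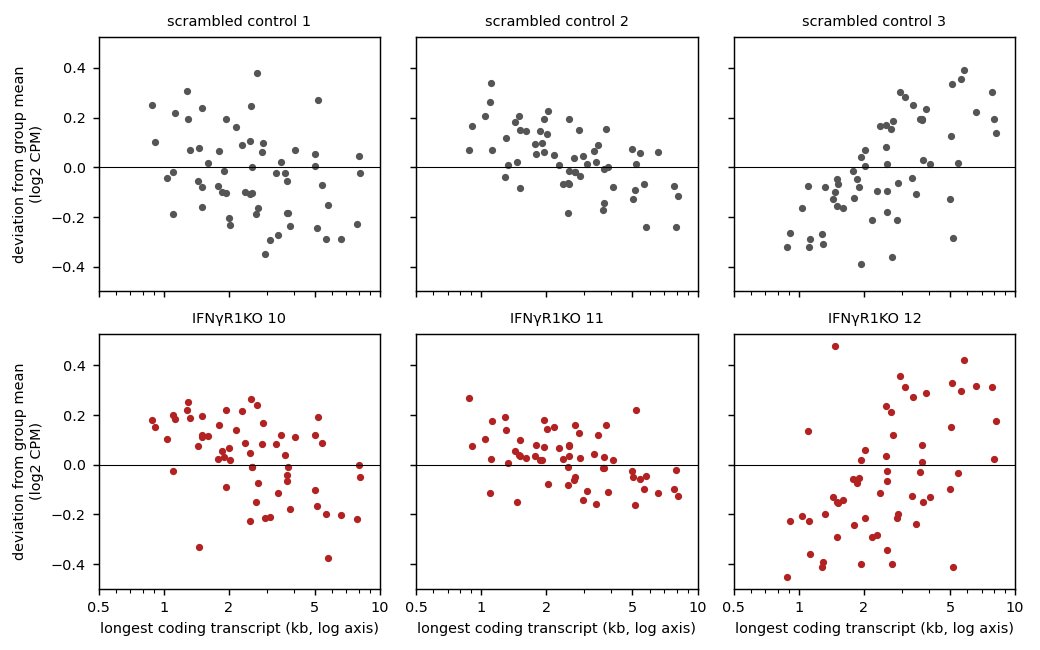
Deviation of each tested factor gene from the mean of its own group (vertical axis, log2 CPM) against the length of its longest coding transcript (horizontal axis, kb, log scale), with 1 panel per library and 1 point per gene. Long transcripts tend to lie above 0 in scrambled control 3 and IFNγR1KO 12 (rho 0.65 and 0.51) and below 0 in the other 4 libraries.

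Most factor genes were abundant and little changed. Of the 63, 58 passed the filter on low counts, and 47 exceeded 50 CPM in every library. In the edgeR quasi-likelihood test, adjusted over all tested genes, 8 of the 58 had an adjusted p under 0.05, a share of 13.8% where 15.3% of all 13642 tested genes were called. Eif1, Eif5, Eif2s2 and Eef2k were higher in IFNγR1KO cells (background 7.73%), and Eif4e, Eif4g3, Eif4ebp2 and Eif5a2 were lower (background 7.62%). Only Eif5a2 was a DEG, with an absolute log2 fold change above 1 as the study defined it (background 5.20%). Without scrambled control 2, IFNγR1KO 10 or IFNγR1KO 11, 4, 3 and 3 factor genes were called (7.93%, 7.78% and 7.32% of all genes), and without IFNγR1KO 12, 10 (19.99%). The groups did not overlap in CPM for 19 of the 58, or 32.8%, beside 32.6% of all tested genes. Factor genes as a class were thus called about as often as the rest of the transcriptome. Their median absolute log2 fold change was 0.19, that of all tested genes 0.25, and the signed medians were 0.011 and -0.0015. In bulk RNA, fewer cells expressing a gene and less RNA per cell cannot be told apart.

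**Figure D2:**
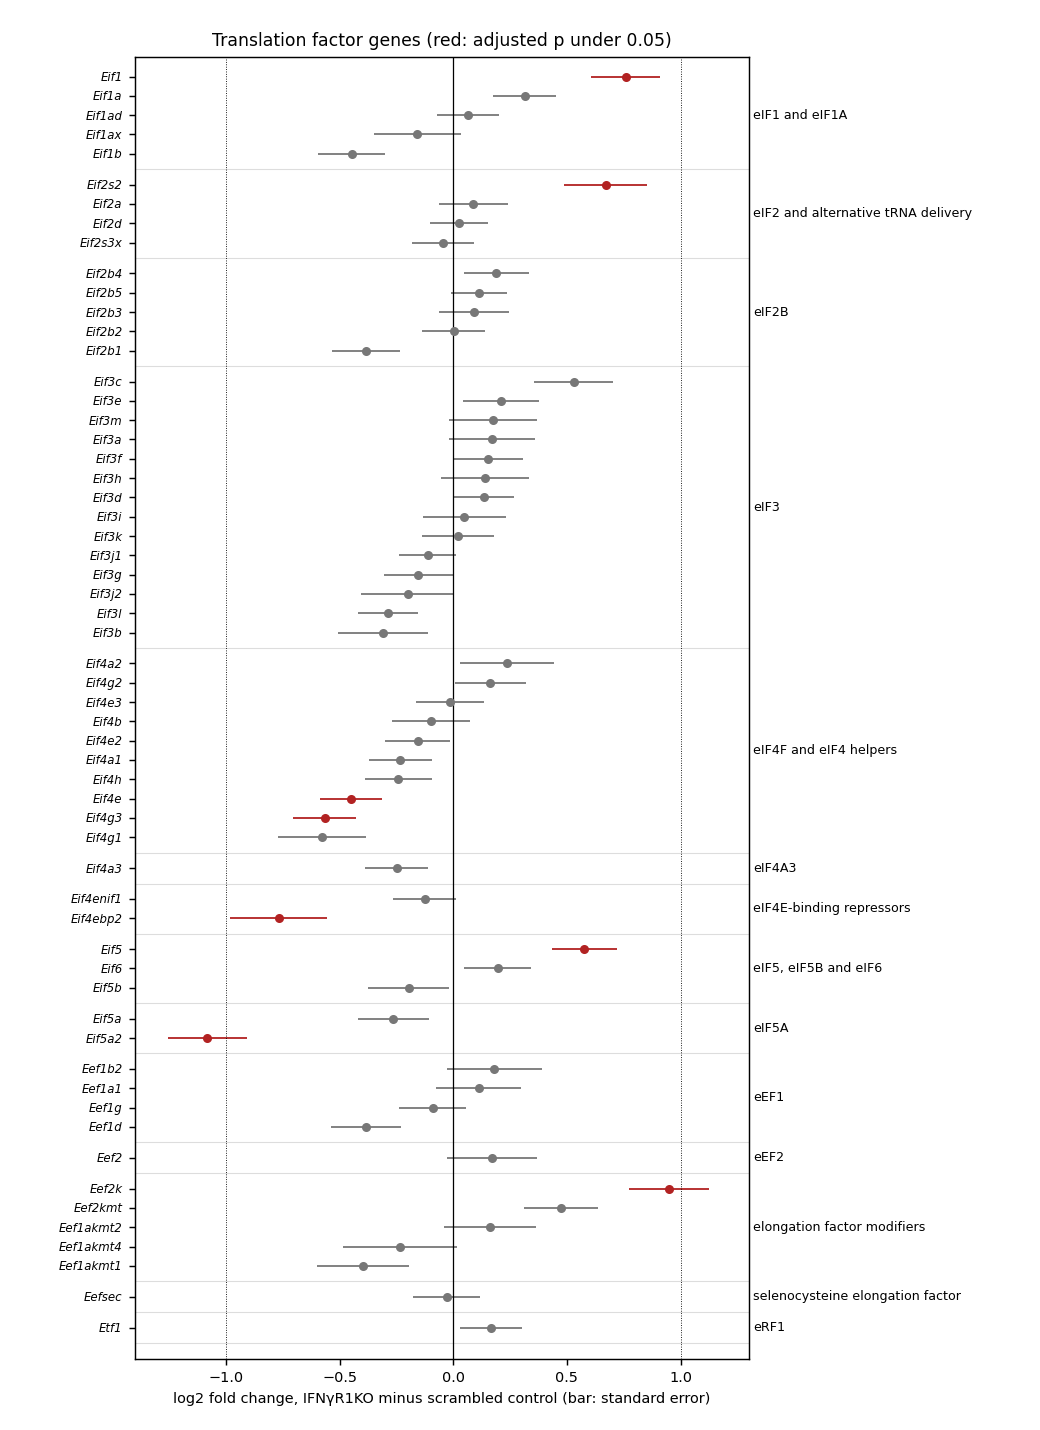
Log2 fold change, IFNγR1KO minus scrambled control, of the 58 tested factor genes (points, with the standard error as a bar), grouped by factor class; dotted lines mark a log2 fold change of 1 in each direction. The 8 red genes passed an adjusted p of 0.05, and of them Eif5a2 alone lies beyond a dotted line.

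The 4 genes that rose act at different steps. Eif1, Eif5 and Eif2s2 encode proteins that meet on the scanning ribosome, where eIF1 and eIF5 compete over recognition of the start codon and eIF2β, the product of Eif2s2, is a subunit of eIF2 that eIF5 contacts. Eef2k acts on elongation. On GRCm38, Eif1 spans chr11:100319885-100322096 (ENSMUSG00000035530.13), Eif5 chr12:111538016-111546752 (ENSMUSG00000021282.17), Eif2s2 chr2:154871410-154892935 (ENSMUSG00000074656.12) and Eef2k chr7:120842831-120907450 (ENSMUSG00000035064.17). Of the 4 that fell, Eif4e and Eif4g3 encode parts of the cap-binding complex, Eif4ebp2 a 4E-BP that restrains it, and Eif5a2 the minor eIF5A isoform. These genes lie at chr3:138526179-138559696 (ENSMUSG00000028156.12), chr4:137993022-138208508 (ENSMUSG00000028760.16), chr10:61428491-61452661 (ENSMUSG00000020091.15) and chr3:28781276-28798846 (ENSMUSG00000050192.8), in that order.

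The promoters of the 3 start-codon genes that rose and of the 3 called genes with an E-box are shown, since the E-box (CACGTG, bound by MYC and MITF family proteins) was more common in factor windows than in all windows. Each line is the 250 bases before the RefSeq start site, 5′ to 3′ on the gene's strand, from GRCm38.p6, with CACGTG in capitals. Eif1 is chr11:100319699-100319948 (plus strand), Eif5 chr12:111537851-111538100 (plus strand), Eif2s2 chr2:154892907-154893156 (minus strand), Eef2k chr7:120842581-120842830 (plus strand), Eif4e chr3:138527018-138527267 (plus strand) and Eif5a2 chr3:28781027-28781276 (plus strand).
Eif1: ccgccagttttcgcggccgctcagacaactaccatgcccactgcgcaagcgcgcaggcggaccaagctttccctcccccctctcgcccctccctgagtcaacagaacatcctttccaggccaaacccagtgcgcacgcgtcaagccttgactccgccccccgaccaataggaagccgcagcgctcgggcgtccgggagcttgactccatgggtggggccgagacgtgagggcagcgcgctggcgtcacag
Eif5: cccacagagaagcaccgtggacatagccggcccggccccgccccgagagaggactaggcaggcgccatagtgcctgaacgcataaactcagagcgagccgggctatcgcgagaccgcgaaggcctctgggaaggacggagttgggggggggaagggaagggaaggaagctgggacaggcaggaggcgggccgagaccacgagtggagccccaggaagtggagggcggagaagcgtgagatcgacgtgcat
Eif2s2: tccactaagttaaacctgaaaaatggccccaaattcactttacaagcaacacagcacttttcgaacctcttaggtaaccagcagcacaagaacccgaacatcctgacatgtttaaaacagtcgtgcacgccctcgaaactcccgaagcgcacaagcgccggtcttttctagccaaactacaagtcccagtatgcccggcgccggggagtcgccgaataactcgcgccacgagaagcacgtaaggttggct
Eef2k: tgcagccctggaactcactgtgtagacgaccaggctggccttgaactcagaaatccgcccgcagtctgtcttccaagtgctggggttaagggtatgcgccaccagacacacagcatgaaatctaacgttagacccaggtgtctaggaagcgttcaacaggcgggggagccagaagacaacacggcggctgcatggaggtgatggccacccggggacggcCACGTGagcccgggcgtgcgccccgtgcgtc
Eif4e: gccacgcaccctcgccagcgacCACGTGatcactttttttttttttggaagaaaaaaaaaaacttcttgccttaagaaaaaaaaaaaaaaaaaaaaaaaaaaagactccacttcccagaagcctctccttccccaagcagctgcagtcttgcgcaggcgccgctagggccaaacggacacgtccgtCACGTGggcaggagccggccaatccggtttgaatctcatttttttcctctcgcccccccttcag
Eif5a2: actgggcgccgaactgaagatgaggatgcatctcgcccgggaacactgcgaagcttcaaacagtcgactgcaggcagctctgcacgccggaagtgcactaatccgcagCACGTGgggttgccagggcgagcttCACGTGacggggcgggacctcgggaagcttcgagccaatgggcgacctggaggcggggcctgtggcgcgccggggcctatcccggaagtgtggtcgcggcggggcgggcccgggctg

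In the printed windows the E-box of Eef2k begins 31 bases before the start site, those of Eif4e begin 228 and 64 bases before it, and those of Eif5a2 begin 142 and 117 bases before it. Eef2k and Eif4e have other RefSeq start sites whose upstream windows held no CACGTG. RefSeq windows of 300 bases, with 50 bases after the start site, were at hand for 47 of the 63 factor genes, 61 windows in all. CACGTG was in 24.6% of these windows and in 7.15% of all 32851 promoter windows. It was found for 13 of the 47 genes, among them Eif3a, Eif3f, Eif3k, Eif4a1, Eif4g1, Eif4h, Eif5a and Eef2, none of which passed the test. The ETS sequence CCGGAAG was in 31.1% of the factor windows and 8.86% of all windows. TGATGCAA, the composite sequence bound by ATF4 with C/EBP proteins, was in no factor window and in 0.895% of all windows, and its relaxed form TGATGNAA, which includes it, was in 3.28% and 3.97%. The TATA box TATAAA was in 6.56% of factor windows and 13.6% of all windows, and the cAMP-response sequence TGACGTCA in 1.64% and 1.79%. All 6 motifs were searched on both strands. The factor windows were compared with all windows without matching base composition, and its part in these differences was not tested. Of the 8 called genes, 3 had an E-box, 1 of them higher and 2 lower. The ETS sequence was found for 2 of the 8, Eif4ebp2 and Eif5a2, and TGATGNAA for 1, Eef2k.

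Eif1, the gatekeeper of start-codon fidelity, was at 519.7, 498 and 468 CPM in scrambled control cells and 949.9, 837 and 726 CPM in IFNγR1KO cells. All 3 IFNγR1KO libraries lay above all 3 scrambled control libraries. The level was 1.69-fold higher in IFNγR1KO cells (log2 fold change 0.76, standard error 0.15, adjusted p = 0.00573) and remained called when any single library was left out. Eif5, the GTPase-activating partner of eIF2, was at 549, 494 and 527 CPM in scrambled control cells and 841, 789 and 710.4 CPM in IFNγR1KO cells. Again the groups did not overlap, and the mean level was 1.49-fold higher in IFNγR1KO cells (log2 fold change 0.58, standard error 0.14, adjusted p = 0.0182). Eif2s2, which encodes eIF2β, was at 488, 392 and 362 CPM in scrambled control cells and 780.1, 685 and 511 CPM in IFNγR1KO cells. Its highest control library, replicate 1, came close to its lowest IFNγR1KO library, replicate 12, and the level was 1.59-fold higher (log2 fold change 0.67, standard error 0.18, adjusted p = 0.0273). The calls of Eif5 and Eif2s2 were lost without scrambled control 2 (adjusted p = 0.0762 and 0.115), without IFNγR1KO 10 (0.0988 and 0.132) and without IFNγR1KO 11 (0.0822 and 0.104), and that of Eif2s2 also without scrambled control 3 (0.0575). Other genes' transcripts held 19.2% of the 50-base windows of Eif1 and 10.2% of those of Eif2s2. Reads there could have been set aside as not uniquely aligned.

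**Figure D3:**
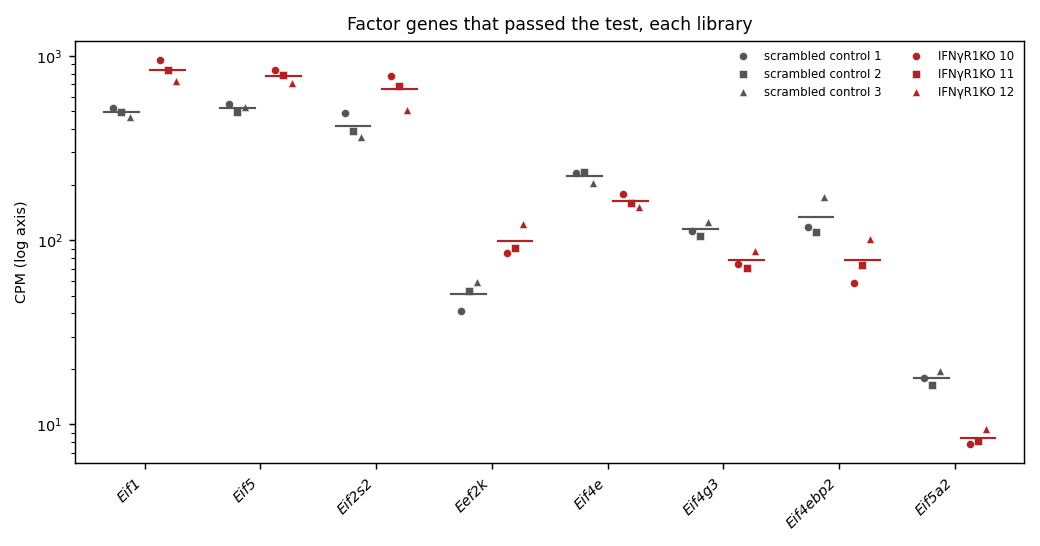
CPM in each library (log axis) of the 8 factor genes with an adjusted p under 0.05; grey points are the 3 scrambled control libraries, red points the 3 IFNγR1KO libraries, and lines the group means. Eif1, Eif5, Eif2s2 and Eef2k are higher and Eif4e, Eif4g3, Eif4ebp2 and Eif5a2 lower in every IFNγR1KO library than in any scrambled control library.

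The relatives of these genes did not all move with them. Eif1b, the close paralog of Eif1, was at 71.5, 85.1 and 65.8 CPM in scrambled control cells and 58.1, 58.1 and 46.8 CPM in IFNγR1KO cells, lower in every IFNγR1KO library, but its adjusted p was 0.0612 (log2 fold change -0.45). Without scrambled control 3 its adjusted p was 0.0347, and without IFNγR1KO 12 as well it was 0.0181. An opposite-strand gene covers 12.7% of its exonic length. Of the eIF1A genes, Eif1ax had a log2 fold change of -0.16 and Eif1a of 0.31, and neither passed the test; the latter did without that pair of libraries (adjusted p = 0.0221). Eif1ad, an eIF1A-like gene, had a log2 fold change of 0.06. The 5 eIF1 and eIF1A genes had a median log2 fold change of 0.064.

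Among the carriers of initiator tRNA, Eif2s2 was the 1 gene called. Eif2s3x, which encodes eIF2γ, had a log2 fold change of -0.05 (0.865 for its adjusted p), and 34.6% of its windows were shared with other transcripts. The α subunit gene Eif2s1, outside the rule, was at 431, 350.0 and 289 CPM in scrambled control cells and 382, 371 and 249 CPM in IFNγR1KO cells, with a log2 fold change of -0.09 (adjusted p = 0.801). Per kb of exonic length, Eif2s2 went from 61.3 to 97.5 CPM per kb, while Eif2s3x was at 25.1 and 24.3. The difference between the subunits' changes was not tested. Eif2a and Eif2d, which deliver initiator tRNA outside eIF2, had log2 fold changes of 0.09 and 0.03.

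None of the 5 eIF2B genes passed the test. Eif2b5, the catalytic ε subunit, was at 119, 117 and 119.5 CPM in scrambled control cells and 127, 131 and 126 CPM in IFNγR1KO cells. Its groups did not overlap, yet the difference was small (log2 fold change 0.11, standard error 0.12, adjusted p = 0.605). Eif2b2, the β subunit and the most abundant of the 5 per length (52.6 and 52.7 CPM per kb), was at 100.0, 109 and 88.2 CPM in scrambled control cells and 107, 101 and 89.5 CPM in IFNγR1KO cells, with nearly equal means. Eif2b1, the α subunit, was at 59.1, 74.7 and 71.3 CPM in scrambled control cells and 54.7, 57.7 and 44.8 CPM in IFNγR1KO cells, lower in every IFNγR1KO library (log2 fold change -0.38, standard error 0.15, adjusted p = 0.105). The summed level of the complex was 368, 422 and 385 CPM in scrambled control and 408, 407 and 379 CPM in IFNγR1KO cells, and the groups overlapped.

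The 14 eIF3 genes gave no call, and their median log2 fold change was 0.091, between -0.043 and 0.13 over 13 alternative settings. Eif3a, the largest scaffold subunit, was at 415, 461 and 618 CPM in scrambled control cells and 493, 494 and 694 CPM in IFNγR1KO cells (log2 fold change 0.17, standard error 0.19, adjusted p = 0.613). Both of its highest libraries were the ones with raised long transcripts. Eif3h, the most abundant per length at 313 and 344 CPM per kb, was at 571, 540.5 and 402 CPM in scrambled control cells and 649.5, 600.0 and 415 CPM in IFNγR1KO cells (log2 fold change 0.14, standard error 0.19, adjusted p = 0.696), and there scrambled control 3 and IFNγR1KO 12 were the lowest of their groups. The summed eIF3 level was 3524, 3698 and 3655 CPM in scrambled control and 3865, 3803 and 3842 CPM in IFNγR1KO cells, with means of 3625 ± 90.6 against 3836 ± 31.4 CPM (SD, n = 3 each). The sums did not overlap, although 9 genes had positive and 5 negative estimates. A large part of the difference came from Eif3c, which was not called and went from a mean of 306 to 442 CPM.

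Eif3c and Eif3b, which together with Eif3a form part of the core of eIF3, had the largest estimates of the complex, in opposite directions. Eif3c was at 251, 307 and 361 CPM in scrambled control cells and 405, 392 and 529.7 CPM in IFNγR1KO cells, higher in every IFNγR1KO library (log2 fold change 0.53, standard error 0.17, adjusted p = 0.0596). Eif3b was at 339.9, 447 and 534 CPM in scrambled control cells and 302, 317 and 448 CPM in IFNγR1KO cells (log2 fold change -0.31, standard error 0.20, adjusted p = 0.338), with overlapping groups. Both fell under an adjusted p of 0.05 when scrambled control 3 and IFNγR1KO 12 were left out together (0.00324 and 0.0478), Eif3c also without the former alone (0.0217) and Eif3b without the latter alone (0.0454). Relative to the median subunit of the same library on the per-length scale, Eif3c stood at 1.32 ± 0.321 in scrambled control and 1.82 ± 0.487 in IFNγR1KO cells, and Eif3b at 2.00 ± 0.566 and 1.54 ± 0.499 (SD, n = 3 each). Most subunits lay between 0.639 (Eif3e) and 1.39 (Eif3g) times the median subunit in scrambled control cells. These ratios depend on the annotation, since exonic length joins all annotated exons of a gene. For Eif3e it is 6.72 kb, where the longest coding transcript has 1506 bases, and for Eif3b 3.35 kb and 2945 bases. Eif3j1, for the loosely bound j subunit, was at 0.265 times the median in scrambled control. Eif3j1 and its copy Eif3j2 share sequence over 36.9% and 91.8% of their windows, so the counts of both are uncertain. Opposite-strand exons of another gene cover 43.3% of Eif3d.

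**Figure D4:**
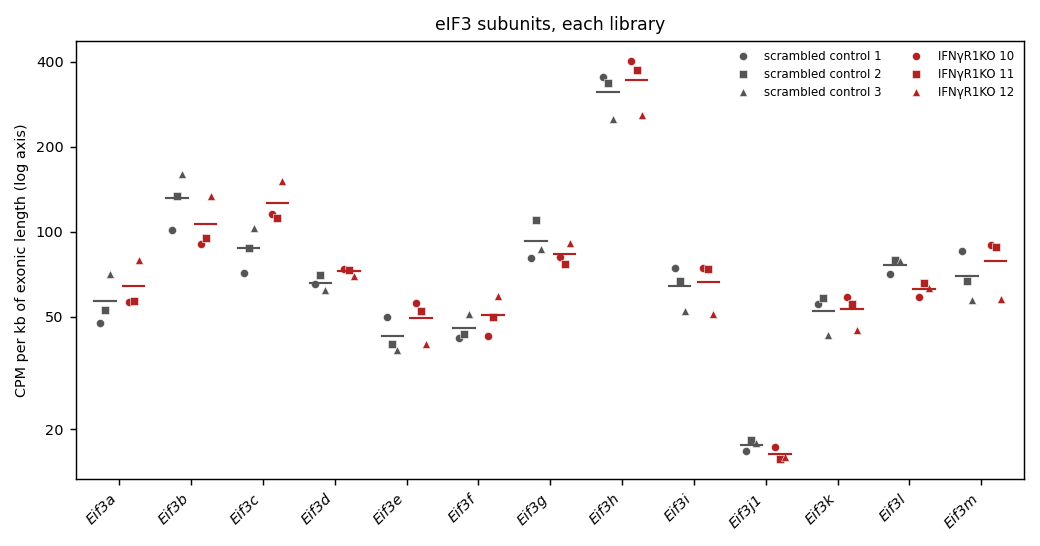
CPM per kb of exonic length (log axis) of 13 eIF3 genes in each library, leaving out Eif3j2; grey points are scrambled control, red points IFNγR1KO, and lines the group means. Eif3c is higher in every IFNγR1KO library, Eif3l lower in every one, and Eif3h stands above and Eif3j1 below the other subunits in both groups.

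Most estimates were negative in the class of eIF4F genes with their paralogs and helpers, such as Eif4b, Eif4h and Eif4g2. Of 10 tested, 2 fell and none rose (7.62% and 7.73% of all tested genes did), and 8 had negative estimates. The median was -0.19 on the log2 scale, between -0.24 and -0.15 over the 13 alternative settings, in which 6 to 8 of the 10 estimates were negative. Their summed level was 3667, 3725 and 4224 CPM in scrambled control and 3373, 3379 and 3543 CPM in IFNγR1KO cells, lower in every IFNγR1KO library.

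Eif4e, the cap-binding subunit, was at 231, 234 and 203 CPM in scrambled control cells and 177, 159.9 and 152 CPM in IFNγR1KO cells. The groups did not overlap, and the level was 1.37-fold lower in IFNγR1KO cells (log2 fold change -0.45, standard error 0.14, adjusted p = 0.0407). Its call was near the threshold. It was lost with upper-quartile scaling (adjusted p = 0.061) and without scrambled control 1 (0.101), scrambled control 2 (0.123), IFNγR1KO 10 (0.0861), 11 (0.186) or 12 (0.0696). Eif4g3, a second eIF4G scaffold, was at 113, 106 and 126 CPM in scrambled control cells and 74.6, 70.9 and 87.3 CPM in IFNγR1KO cells, 1.48-fold lower (log2 fold change -0.57, standard error 0.14, adjusted p = 0.017). This call was lost without IFNγR1KO 10 (adjusted p = 0.0789) or 11 (0.119). Eif4g1, the main eIF4G, was at 652, 759 and 1019.7 CPM in scrambled control cells and 467, 501 and 659 CPM in IFNγR1KO cells (log2 fold change -0.58, standard error 0.19, adjusted p = 0.0638). Scrambled control 1 and IFNγR1KO 12 overlapped slightly, and Eif4g1 missed the threshold. It passed without scrambled control 1 (adjusted p = 0.0415), without IFNγR1KO 12 (0.00618), without that library and scrambled control 3 (0.0013) and with DESeq2 (0.0237).

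The helicase and its cofactors did not pass. Eif4a1, the most abundant of the class per length (163 and 138 CPM per kb), was at 668, 751 and 696 CPM in scrambled control cells and 609, 614 and 575 CPM in IFNγR1KO cells, lower in every IFNγR1KO library (log2 fold change -0.23, standard error 0.14, adjusted p = 0.3). Eif4b, a stimulator of the helicase, was at 270.1, 319 and 374 CPM in scrambled control cells and 262, 275 and 363 CPM in IFNγR1KO cells (log2 fold change -0.10, standard error 0.17, adjusted p = 0.763). Eif4h, its homologue, had a log2 fold change of -0.24, and the alternative helicase Eif4a2 of 0.24. Eif4g2, which lacks the eIF4E-binding part of eIF4G and serves cap-independent initiation, was at 822, 675 and 913 CPM in scrambled control cells and 898, 887 and 914 CPM in IFNγR1KO cells (log2 fold change 0.16, standard error 0.16, adjusted p = 0.545). Eif4e2 and Eif4e3, the alternative cap-binding proteins, had log2 fold changes of -0.16 and -0.01. Eif4a3, a relative of the helicase that belongs to the exon junction complex, was at 169, 198 and 171 CPM in scrambled control cells and 163, 154 and 135 CPM in IFNγR1KO cells (log2 fold change -0.25, standard error 0.14, adjusted p = 0.262).

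Among the eIF4E-binding repressors within the rule, Eif4ebp2 was the only gene called, and it fell. Eif4ebp2, which encodes 4E-BP2, was at 117, 110.4 and 171 CPM in scrambled control cells and 58.5, 73.7 and 102 CPM in IFNγR1KO cells. Each IFNγR1KO library lay below each scrambled control library, and the level was 1.70-fold lower (log2 fold change -0.77, standard error 0.21, adjusted p = 0.0295). The call was lost without scrambled control 2 (adjusted p = 0.0592), scrambled control 3 (0.0621), IFNγR1KO 10 (0.118) or 11 (0.127), while without IFNγR1KO 12 the log2 fold change was -1.01. Eif4ebp1, which encodes 4E-BP1 and lies outside the rule, went the other way, at 109, 154 and 113 CPM in scrambled control cells and 305, 293 and 286 CPM in IFNγR1KO cells (log2 fold change 1.23, standard error 0.16, adjusted p = 0.000355). Per exonic length, Eif4ebp2 was 28.9%, 21.4% and 36.6% in scrambled control and 6.79%, 8.71% and 11.9% in IFNγR1KO cells of the sum of both genes. This pair was chosen after its values were seen. Eif4enif1, for the 4E-T protein that carries eIF4E to sites of messenger RNA silencing, had a log2 fold change of -0.13 (adjusted p = 0.604).

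Eif5a2 had the largest change of any tested factor gene. It was at 17.9, 16.3 and 19.5 CPM in scrambled control cells and 7.81, 8.13 and 9.42 CPM in IFNγR1KO cells, from 165, 164 and 202 counts in scrambled control and 55, 60 and 67 in IFNγR1KO libraries. The level was 2.12-fold lower in IFNγR1KO cells (log2 fold change -1.08, standard error 0.17, adjusted p = 0.00158), and the call held without any single library. No exon of another gene overlaps it on the other strand, and none of its 50-base windows is shared. Eif5a, the major isoform, was at 1218, 1435 and 1159.9 CPM in scrambled control cells and 1114, 1097 and 966 CPM in IFNγR1KO cells (log2 fold change -0.26, standard error 0.16, adjusted p = 0.297), also lower in every IFNγR1KO library. Per kb, Eif5a stood at 535 and 445 CPM per kb and Eif5a2 at 3.56 and 1.68, so the DEG was the far scarcer isoform. Dhps and Dohh, the enzymes that make the hypusine residue of eIF5A, had log2 fold changes of 0.35 and 0.05 (adjusted p = 0.192 and 0.899). Dhps passed without IFNγR1KO 12 (adjusted p = 0.0251) and without scrambled control 3 as well (0.0255).

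The subunit-joining factors showed no call beside Eif5. Eif5b, the GTPase that joins the large subunit, had a log2 fold change of -0.20 (adjusted p = 0.52). Eif6, which keeps free large subunits from joining too early, was at 154, 199 and 167 CPM in scrambled control cells and 213, 203 and 178 CPM in IFNγR1KO cells (log2 fold change 0.19, standard error 0.15, adjusted p = 0.424).

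The core of elongation did not pass the test in either direction. Eef1a1, the most abundant factor gene per length, was at 10280.4, 10195 and 9017 CPM in scrambled control cells and 11789, 11139.7 and 8915 CPM in IFNγR1KO cells (log2 fold change 0.11, standard error 0.19, adjusted p = 0.752). It took 34.2% to 40.1% of all counts on factor genes. Per kb it stood at 3943 and 4258 CPM per kb, and 39.4% of its windows occur in other transcripts. Eef1a2, its muscle and neuron isoform, had 4, 0 and 5 counts in scrambled control and 3, 1 and 1 in IFNγR1KO libraries and was not tested. Of the exchange factor for eEF1A, Eef1b2 had a log2 fold change of 0.18, Eef1g of -0.09 and Eef1d of -0.38 (adjusted p = 0.12). Eef1d was lower in every IFNγR1KO library and passed without scrambled control 3 and IFNγR1KO 12 (adjusted p = 0.0128). Eef2, the translocase, was at 1703, 2105 and 2536 CPM in scrambled control cells and 2031, 2187 and 2922 CPM in IFNγR1KO cells (log2 fold change 0.17, standard error 0.20, adjusted p = 0.63). The 2 libraries with raised long transcripts were the highest of their groups.

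Eef2k, the calcium- and calmodulin-dependent kinase that switches eEF2 off, rose the most of all tested factor genes. It was at 41.4, 52.8 and 59.1 CPM in scrambled control cells and 84.7, 90.1 and 122 CPM in IFNγR1KO cells. The lowest IFNγR1KO library, replicate 10, lay well above the highest scrambled control library, replicate 3. The level was 1.93-fold higher (log2 fold change 0.95, standard error 0.18, adjusted p = 0.00354) and was called without any single library. Its log2 fold change was between 0.77 and 1.07 over the 13 alternatives, above 1 without scrambled control 3 (1.07), IFNγR1KO 10 (1.05) or IFNγR1KO 11 (1.03). Eef2kmt, which methylates eEF2, was at 42.0, 38.9 and 32.4 CPM in scrambled control cells and 57.1, 57.7 and 42.3 CPM in IFNγR1KO cells (log2 fold change 0.47, standard error 0.16, adjusted p = 0.0676), and an opposite-strand gene covers 23.0% of its exonic length. It passed without IFNγR1KO 12 (adjusted p = 0.00878) and without scrambled control 3 too (0.00831). Eef1akmt1, a methyltransferase for eEF1A and the most abundant modifier per length, was at 53.4, 47.1 and 35.9 CPM in scrambled control cells and 38.2, 40.6 and 24.5 CPM in IFNγR1KO cells (log2 fold change -0.40, standard error 0.20, adjusted p = 0.217). The other eEF1A methyltransferases tested, Eef1akmt2 and Eef1akmt4, had log2 fold changes of 0.16 and -0.24.

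Etf1, which encodes the release factor eRF1 that reads stop codons, was at 167, 157 and 199 CPM in scrambled control cells and 189.8, 199.8 and 197 CPM in IFNγR1KO cells (log2 fold change 0.17, standard error 0.14, adjusted p = 0.476). Eefsec, the factor that brings selenocysteine to recoded stop codons, was at 121, 142 and 153 CPM in scrambled control cells and 122, 129 and 156 CPM in IFNγR1KO cells (log2 fold change -0.03, standard error 0.15, adjusted p = 0.924). In both genes the groups overlapped.

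Shares within pairs of paralogs do not depend on the scaling between libraries. On the per-length scale, Eif1b was 20.4%, 24.1% and 20.8% in scrambled control and 10.2%, 11.5% and 10.7% in IFNγR1KO cells of the sum of Eif1 and Eif1b. Its share was thus 21.8% ± 2.06 against 10.8% ± 0.619 (SD, n = 3 each). Eif4g2 was 47.5%, 39.0% and 39.1% in scrambled control and 58.0%, 55.9% and 49.9% in IFNγR1KO cells of the sum of Eif4g1 and Eif4g2. For Eif4e2 in the sum of Eif4e and Eif4e2 the shares were 31.6%, 32.3% and 32.4% in scrambled control and 36.5%, 38.9% and 34.3% in IFNγR1KO cells. In these 3 pairs, and for Eif5a2 in Eif5a plus Eif5a2 (0.672% ± 0.128 and 0.380% ± 0.0694), the groups did not overlap. The exact two-sided permutation test gave p = 0.1 for each, the smallest it can give with 3 libraries against 3, and p = 0.175 after adjustment over 7 pairs, so no pair could pass. Eif4a2 in Eif4a1 plus Eif4a2 went from 22.1% ± 5.02 to 28.1% ± 4.08, with overlap (exact p = 0.2, adjusted 0.28). The shares of Eif3j2 (exact p = 0.5, adjusted 0.583) and Eef1a2 (exact p = 0.6, adjusted 0.6) overlapped too.

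**Figure D5:**
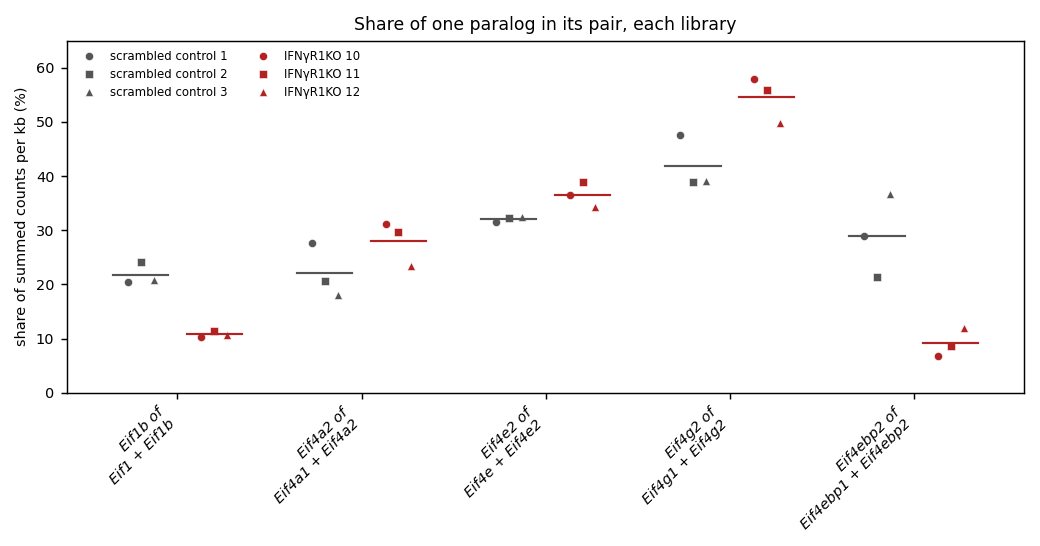
Share of one paralog in the summed counts per kb of its pair (vertical axis, %), in each library; grey points are scrambled control, red points IFNγR1KO, and lines the group means. The mean share of Eif1b is 21.8% in scrambled control and 10.8% in IFNγR1KO cells, that of Eif4ebp2 is 29.0% and 9.15%, and that of Eif4g2 is 41.9% and 54.6%.

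Factor genes known to carry a 5′-terminal oligopyrimidine (TOP) tract, whose messenger RNAs mTORC1 controls mainly through translation, were described as a list. Of 9 (Eef1a1, Eef1b2, Eef1d, Eef1g, Eef2, Eif3e, Eif3f, Eif3h and Eif4b), 0 passed by edgeR, DESeq2 or voom, beside 15.3% of all tested genes in edgeR. In edgeR 1 of the 9, Eef1d, had an unadjusted p under 0.05, as did 28.9% of all tested genes. That gene was the 1 of the 9 called without scrambled control 3 and IFNγR1KO 12, where 22.3% of all genes were. The median log2 fold change of the 9 was 0.14. Among translation factors that go by other names, 1 of 23 tested was called, again beside 15.3% of all tested genes. It was Pdcd4, an inhibitor of eIF4A, which was at 4.02, 4.48 and 6.18 CPM in scrambled control cells and 15.6, 16.5 and 14.8 CPM in IFNγR1KO cells (log2 fold change 1.67, standard error 0.20, adjusted p = 0.000283). Gspt1, an eRF3 partner of eRF1, had a log2 fold change of -0.33 (adjusted p = 0.107), and Pabpc1, the poly(A)-binding protein, of -0.03 (adjusted p = 0.945). The other eRF3 gene, Gspt2, did not pass the filter on low counts and was not tested in edgeR. It had 7, 11 and 9 counts in scrambled control and 0 in every IFNγR1KO library. DESeq2's Wald test called it lower (log2 fold change -5.16, adjusted p = 0.0061). Without scrambled control 3 and IFNγR1KO 12, 3 of the 23 were called (22.3% of all genes), since Dhps and Bzw2, an eIF5 mimic (log2 fold change -0.36, adjusted p = 0.0728, and 0.035 without the pair), were added to Pdcd4. None of 11 mitochondrial translation factors passed (background 15.3%), and their median was 0.037. Without the same pair 2 of the 11 passed. These were Gfm1, a mitochondrial elongation factor G, with an adjusted p of 0.0778 and 0.0088 without the pair, and Mtif2, the mitochondrial initiation factor IF2, with 0.19 and 0.0264. Without IFNγR1KO 12 alone, Gfm1 (0.0154) and the release factor Mtrf1 (0.048) passed. Of the 7 genes that the rule leaves out, 3 passed (background 15.3%). Beside Eif4ebp1 these were the eIF2α kinases Eif2ak3 (PERK), with a log2 fold change of 0.52, and Eif2ak2 (PKR), with one of -0.55 (adjusted p = 0.04 and 0.0376). Of the fits without 1 library, Eif2ak3 passed only in that without scrambled control 3 (0.00866) and Eif2ak2 only in that without IFNγR1KO 12 (0.0157).

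The 5 factor genes that were not tested had few or no counts. Eif2s3y, the Y-linked copy of eIF2γ, had 0 counts in all 6 libraries, which allows a level of up to 3 counts, or 0.29 to 0.426 CPM. Eif4e1b, the oocyte form of eIF4E, and Eif4ebp3 had at most 1 count per library. Eef1akmt3 had 3 to 9 counts, or 0.404 ± 0.168 CPM in scrambled control cells against 0.929 ± 0.295 CPM in IFNγR1KO cells (SD, n = 3 each), and Eef1a2 is described above.

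Summed over all 63 genes, factor transcripts took 2.58% to 2.65% of the counts in scrambled control and 2.77% to 2.90% in IFNγR1KO libraries. After TMM scaling their summed level was 26348, 27252 and 26086 CPM in scrambled control and 29367, 28501 and 26104 CPM in IFNγR1KO cells, and the groups overlapped, with IFNγR1KO 12 below scrambled control 1 and 2. Without Eef1a1 it was 16068, 17057 and 17068 CPM in scrambled control and 17578, 17362 and 17189 CPM in IFNγR1KO cells, and the groups did not overlap.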

How the data were processed

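RNA-seq count tables of 6 libraries were used. The authors aligned reads to GRCm38 and, per the labels and methods, deposited raw counts per gene without normalization. The submitters' processing notes name STAR 2.7.5a, HTSeq 0.11.2 and DESeq2 1.34.0. The annotation release and strand setting are not given in the sources used here. Of the records in the count tables, which hold no unaligned reads, 46.9% to 47.7% were on no feature, and these rows stayed out of all totals. Groups and replicates came from the sample labels.

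Symbols and exonic lengths came from GENCODE M21, in which 54587 identifiers had the same version and 567, 1 of them a factor gene, were matched without it. Exonic length joins all annotated exons of a gene, so levels per kb of different genes depend on the annotation. Promoters came from RefSeq (GRCm38.p6). In R 4.3.3, edgeR 4.0.16 was run on all genes: filterByExpr (minimum count 10, minimum total 15) kept 13642, followed by TMM scaling, the quasi-likelihood test and Benjamini-Hochberg adjustment over all of them. DEGs were called at an adjusted p under 0.05 with a log2 fold change beyond 1 in size. The study's own test, DESeq2's Wald test, was an alternative, here in DESeq2 1.42.0, as were limma 3.58.1 with voom, 2 other scalings, 2 other filters, 2 limits on overlapping or shared sequence and leaving out libraries. A gene at 3 counts or fewer was taken as at the floor.

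The members, lists and motifs were chosen with earlier results of these data known, and classes are described by counts and medians with no set test. Eif1a was added to its class, and leaving out scrambled control 3 and IFNγR1KO 12 together and the limit on shared sequence were chosen, after the data were seen. Values in every library are given for the called genes, up to 8 per direction, for the most abundant gene of each class per length and for 15 central factors; other factors were named freely. Tested on simulated counts of this comparison, edgeR recovered 200 of 200 changed genes among 13642 and called 9 unchanged ones. The planted changes were all larger than that of any tested factor gene, and no difference by transcript length was simulated. Recovery of changes of the size reported here was therefore not tested. One marker gene is not reported here, and protein data of the study were not used here.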

Additional observations from a re-analysis of the deposited data

How the results depend on the processing

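No paired analysis was possible because the groups share no replicate number. With any one library left out, 2 to 5 factor genes were higher and 1 to 5 lower, 0 to 1 higher and 1 to 2 lower were DEGs, and the median log2 fold change of the eIF2 genes went from -0.021 to 0.15. The calls of Eif1, Eif5a2 and Eef2k held in all 13 alternative fits. The limits on overlapping or shared sequence are not among these fits. They leave out Eef2k (1.36% of its exonic length overlapped on the other strand) and Eif1 (19.2% of its windows shared). Without scrambled control 3 and IFNγR1KO 12 together, 7 were higher and 8 lower, while 22.3% of all genes were called, and the difference in the share of Eif3j2 was 0.348 percentage points instead of -0.709; the cause was not tested. An adjusted p under 0.01 left 2 higher and 1 lower, and genes with little shared sequence 2 higher (fewer genes were counted). The median of the 2 eIF5A genes was -0.64 with upper-quartile scaling and -0.70 without the filter. By plain counts, the share of Eif1b differed by -6.90 instead of -11.0 percentage points and that of Eif5a2 by -0.61 instead of -0.292, since length was not removed. With DESeq2, and without the filter, 5 were higher and 6 lower, Eif3c, Eif1b and Eif4g1 being added in both. Depth limits the factor genes with few counts, above all the 5 not tested.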
